A study of Mus musculus with 24 samples.

Results

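The comparison described here asks what the additional loss of Etv4 and Etv5 changes in mouse islets whose β cells have already lost Cop1. Its members are the 8 RNA sequencing libraries of the second sample-number series (set 2) whose titles name Cop1 deletion with or without Etv4/5 deletion, 4 of each, out of 24 libraries in all. The Cop1 deletion group has the genotype Cop1 fl/fl; Pdx1.CreERT2. The added deletion group, below the Etv4/5 libraries, is Cop1fl/fl; Etv4ko/+; Etv5fl/fl; Pdx1.CreERT2, so that 1 Etv4 allele was lost in the whole animal, the other Etv4 allele stayed and Etv5 was floxed. The 4 set 2 control libraries are Cop1 fl/fl without Cre and are given as levels beside the comparison. All 3 groups therefore carry floxed Cop1, all are on a mixed background, and all animals were 3 to 4 months old. Islets were cultured and handpicked before RNA was purified. Pdx1.CreERT2 acts in cells that express Pdx1, which in the adult pancreas are mainly β cells, and its Cre needs tamoxifen; how and when tamoxifen was given is not stated in the sources used here.

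COP1 is a ubiquitin ligase that binds transcription factors and sends them to the proteasome. Its substrates include ETV1, ETV4 and ETV5, the PEA3 group of ETS factors, which act downstream of growth factor receptors and the kinase ERK and bind DNA at a GGAA core. In β cells, which take up glucose through GLUT2, convert it into calcium entry and release insulin granules, loss of COP1 leaves these factors undegraded.

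Values are RPKM, read counts scaled to gene length and to the mapped reads of the library, so levels can be compared between genes. Genes reaching 1 RPKM in 4 or more of the 8 libraries, 13330 in number, were tested with limma on log2(RPKM + 0.5). Each adjusted p was corrected over all of these by the Benjamini-Hochberg method. A difference in log2 units is Etv4/5 minus Cop1 deletion throughout. Because 4 libraries stood on each side, values are also described by whether the 2 groups overlap, that is, whether every Etv4/5 library lay above, or below, every Cop1 deletion library.

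The 8 libraries were not alike in quality or content. Total RPKM was 581590 to 682560, relative read depth lay between 0.812 and 0.93 of the deepest set 2 library, and insulin transcripts made up 21% to 28.9% of RPKM. Rank correlation was 0.991 to 0.996 among the Etv4/5 libraries but 0.929 to 0.986 among the Cop1 deletion libraries, of which replicates 2 and 3 lay at 52.1 and 23.3 on a first principal component that held 51% of the variance, while the other 6 lay between -18.7 and -3.4. Transcripts of the Y chromosome were present in Etv4/5 replicates 1 and 3 and in Cop1 deletion replicates 2 and 3, and none of the 4 controls had them above Xist. Leaving out Cop1 deletion replicates 2 and 3, as done below, thus also leaves no Cop1 deletion library with Y transcripts above Xist. With a sex covariate the limma test over the 8 libraries called 1 gene (smallest adjusted p 0.0448). The 41 acinar markers, genes of the enzyme-secreting cells around islets, made up 0.223%, 0.488%, 0.752% and 0.932% of RPKM in the Etv4/5 libraries and 0.973%, 2.05%, 2.31% and 5.47% in the Cop1 deletion libraries. The groups did not overlap in this share (exact permutation test, 2-sided, p = 0.0286, the smallest that 4 against 4 allows), and the controls spanned 0.225% to 2.62%. Summed acinar RPKM did overlap, at 1400 to 5890 in Etv4/5 against 5660 to 32700 in Cop1 deletion (same permutation test, p = 0.0571). Of the 36 acinar markers tested, 18 were lower in every Etv4/5 library (50%, against 6.63% of all genes) and none was higher, with a median difference of -2.01. Ctrb1, a chymotrypsinogen, was 516 to 2080 RPKM against 1750 to 12600. Summed ductal markers were 1620 to 3200 RPKM against 3370 to 5220, with 7 of 16 lower without overlap (43.8%, against 6.63% of all genes). Summed immune markers were 272 to 332 against 290 to 887, highest in Cop1 deletion replicate 2. Stromal markers summed to 468 to 529 RPKM against 151 to 644, lowest in Cop1 deletion replicate 1. Without Cop1 deletion replicates 2 and 3, 14 of 16 endothelial and 15 of 20 stromal markers were higher in the Etv4/5 libraries without overlap (87.5% and 75%, against 16.1% of all genes over those 6 libraries). Acinar and ductal RNA moved with the genotype, and their part in the results below was not tested beyond the acinar covariate. That fit takes into account the mean log2 level of the acinar markers in each library. The level was 3.5 to 5.52 in Etv4/5 and 5.25 to 7.9 in Cop1 deletion. Since it went largely with the genotype, a call kept or lost under the covariate cannot tell acinar RNA from genotype. The ductal list holds Spp1 and Krt7, both also listed as changed after Cop1 deletion, so its sum does not measure duct cells alone. The immune list holds C1qa, listed as changed in the same way, at means of 84.6 (Etv4/5) and 97.6 RPKM (Cop1 deletion). The immune sum therefore does not measure immune cells alone. In bulk islets, fewer cells of a type and less RNA per cell cannot be told apart.

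**Figure D1:**
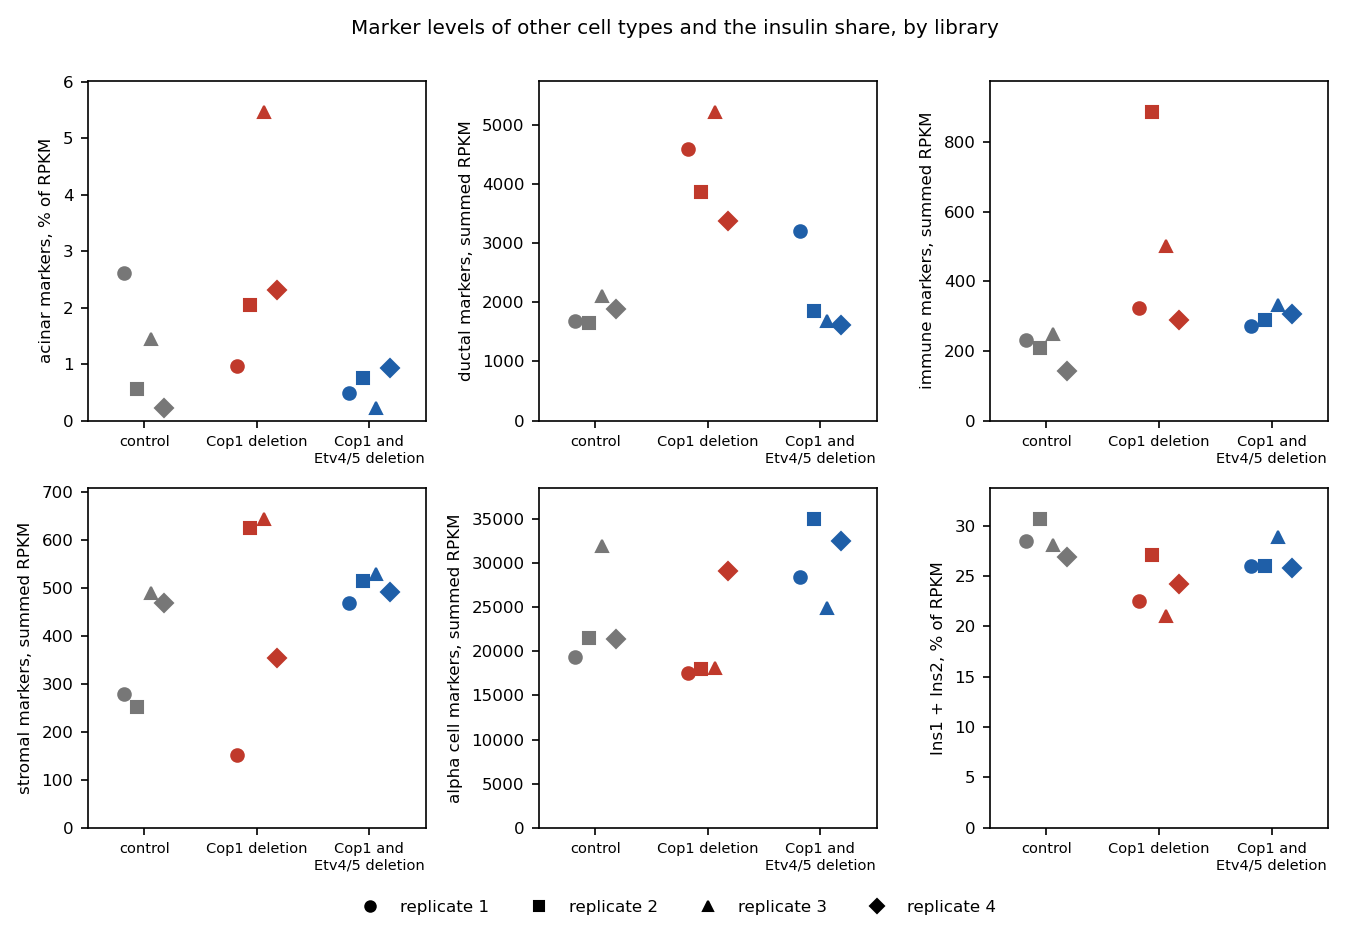
Summed marker levels per library in set 2, from 0 (vertical axes in percent of RPKM or summed RPKM, marker shape for the replicate number). The Cop1 deletion libraries sit at 0.973% to 5.47% acinar RNA, above all 4 Etv4/5 libraries at 0.223% to 0.932%, and Cop1 deletion replicate 2 stands alone in immune markers at 887 RPKM.

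The targeted genes were read first. Cop1 was 0.853, 0.77, 0.856 and 0.783 RPKM in Etv4/5 replicates 1 to 4, 0.934, 0.922, 0.763 and 0.88 in Cop1 deletion and 1.43 to 1.87 in control. All 8 libraries of the comparison were thus below every control, and the 2 deletion groups overlapped. Etv5, the floxed PEA3 gene, was 1.83, 1.39, 1.42 and 1.59 RPKM in the Etv4/5 libraries against 2.75, 1.23, 2.25 and 2.34 after Cop1 deletion, while controls held 2.93 to 6.99. The difference of -0.33 (95% interval -0.77 to 0.11, adjusted p = 0.42, limma) did not pass, and both deletion groups were below control. Etv4, of which the label removes 1 allele, was 0.778 to 1.2 RPKM against 0.551 to 1.64, with controls at 0.349 to 0.661, and like Cop1 was too low to be tested. Etv1, the PEA3 gene left intact, was 4.9 to 6.85 RPKM against 1.81 to 5.12 (difference 0.53, adjusted p = 0.40). A value per gene does not separate a deleted exon from the rest of a transcript, so these levels neither show nor contradict the Etv genotype, which rests on the labels. Esr1, whose ligand-binding part is contained in CreERT2, was 71.9 to 98.3 and 44 to 79.8 RPKM in the 2 groups and at most 0.2 in controls, so all 8 libraries carried the Cre transgene. Pdx1, the gene whose promoter drives Cre and a β-cell factor itself, was 65.9 to 102 RPKM against 50.2 to 69.1 (difference 0.51, SE 0.14, adjusted p = 0.25).

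With the 8 libraries alone, 1 gene of 13330 passed the test, a share of 0.0075%. Gm15638, a long noncoding RNA gene (NCBI Gene 100503378), rose to 1.36, 1.23, 1.3 and 1.3 RPKM in the Etv4/5 libraries from 0.248, 0.302, 0.16 and 0.258 after Cop1 deletion. The groups stood far apart with little spread inside either (log2 difference 1.28, SE 0.10, adjusted p = 0.012, higher in 4 of 4). The controls were spread across the levels of both groups, with 0.771 and 1.44 RPKM in replicates 1 and 4 and 0.169 and 0.163 in replicates 2 and 3. Gm15638 lies on chromosome 16, as does Etv5 (GRCm38.p6), and 13 of the 395 chromosome 16 genes tested (3.29%) passed in the 22-library fit described next, against 1.82% of all placed genes and 3.44% on chromosome 15. The call was lost when any 1 of the 4 Etv4/5 libraries was left out (adjusted p 0.059 to 0.13), when set 2 controls joined the fit (0.16) and with the acinar covariate (0.47). At an unadjusted p under 0.05 there were 1900 genes, or 14.3% of those tested.

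In all, 998 genes (7.49%), Gm15638 among them, were higher in every Etv4/5 library than in every Cop1 deletion library, and 884 (6.63%) were lower. These counts depend on the scale: with libraries brought to equal total RPKM they were 578 and 964, and with equal totals outside the acinar markers 415 and 1356, which moves the higher share of genes without overlap from 53% to 23.4%. When all 22 libraries whose columns could be placed entered 1 fit, so that the spread was estimated over 6 groups, 97 genes were called higher (0.728%) and 145 lower (1.09%), and 227 of these 242 had no overlap among the 8 libraries. Without a set 1 control library that carried Esr1 at the level of Cre libraries, 236 were called. Equal totals outside the acinar markers gave 54 and 155, of which 164 were among the 242. Leaving out Cop1 deletion replicates 2 and 3 gave 29 and 15 calls in the 22-library fit, 21 of them among the 242, and the acinar covariate gave 2 and 6, all among them. The 22-library fit pools the spread of all groups, set 1 included, while the Cop1 deletion libraries were less alike than the Etv4/5 libraries. Its spread may therefore be too small for this comparison. With only the 12 set 2 libraries in the limma fit, no gene was called (smallest adjusted p 0.067). A call named below refers to the 22-library fit unless it says otherwise, and the adjusted p over the 8 libraries is given with it.

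Genes of β-cell identity and maturity stood higher in the Etv4/5 libraries more often than genes at large. Of 38 tested, 12 were higher without overlap (31.6%, against 7.49% of all genes) and 2 lower (5.26%, against 6.63%), with a median difference of 0.29 beside 0.01 over all genes. Outside the acinar total the counts were 11 and 1 (all genes 3.11% and 10.2%), and without Cop1 deletion replicates 2 and 3 they were 13 (34.2%) and 3, beside 16.1% and 16.2% of all genes. None passed over the 8 libraries. Mafa, Slc2a2, Trpm5 and Neurod1 (higher) and Chgb (lower) are also listed as changed after Cop1 deletion in an earlier analysis of these data. The β-cell list was drawn up with such results known, so its share is no independent evidence. In the 22-library fit Mafa, Slc2a2, Ero1b, Pcsk2 and the granule zinc transporter gene Slc30a8 were called higher and Chgb was called lower. None of the 5 higher calls was made again without Cop1 deletion replicates 2 and 3 (adjusted p 0.1 to 0.38) or with the acinar covariate (0.078 to 0.11), while that of Chgb was made in both. Slc30a8 was 123 to 163 RPKM against 58.6 to 132, so its groups overlapped.

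Mafa, which encodes a transcription factor that activates the insulin genes in adult β cells, was 17.9, 35.3, 51.5 and 41.2 RPKM in the Etv4/5 libraries and 9.77, 13.4, 6.63 and 16.1 after Cop1 deletion. Every Etv4/5 library was above every Cop1 deletion library, but Etv4/5 replicate 1 lay close to the other group, and all 8 stayed below the controls at 104 to 181 RPKM. The means were 36.5 ± 14 and 11.5 ± 4.1 (SD, n = 4 each), a ratio of 3.18, and the control mean was still 3.99 times that of the Etv4/5 libraries. The log2 difference was 1.60 (SE 0.36, adjusted p = 0.2 over 8 libraries and 0.019 in the 22-library fit, both limma). Slc2a2, which encodes GLUT2, was 8.36, 12.1, 17 and 14.3 RPKM against 5.21, 4.61, 4.66 and 7.82, with controls at 36.4 to 85.8. The order was that of Mafa: separate groups, a narrow gap, and a control mean 4.95 times as high as that of the Etv4/5 libraries. The difference was 1.13 (SE 0.23, adjusted p = 0.18 and 0.024). With the acinar covariate in the 22-library fit the adjusted p was 0.078 for each of the pair, and without Cop1 deletion replicates 2 and 3 it was 0.1 for Mafa and 0.2 for Slc2a2, with differences of 1.41 and 0.92 in the 8-library fit.

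Others of the list were closer to control. Ero1b, an oxidase that helps proinsulin fold, was 191 to 224 RPKM against 100 to 152, with controls at 126 to 194 (difference 0.71, adjusted p = 0.16 and 0.02). Pcsk2, a convertase that cuts proinsulin, was 1010 to 1220 RPKM against 686 to 965 and 898 to 1080 in control (0.44, adjusted p = 0.24 and 0.024); an annotated antisense transcript overlaps it, and since the counting is not stated to use strand the pair cannot be told apart. Ucn3, urocortin 3 of mature β cells, was 226 to 330 RPKM against 96.4 to 222 (0.93, adjusted p = 0.25 and 0.073). Neurod1, an endocrine transcription factor, was 60.7 to 64.9 RPKM against 42.7 to 56.5, between Cop1 deletion and the controls at 80.9 to 91.5 (0.29, adjusted p = 0.27 and 0.062). The most abundant members moved little: Ins2 was 133000 to 153000 RPKM against 108000 to 160000, and Iapp, amylin, 53800 to 57100 against 39200 to 58100. Ins1 had no overlap at 25000 to 28500 RPKM against 17900 to 24900 (0.38, adjusted p = 0.3 and 0.093).

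**Figure D2:**
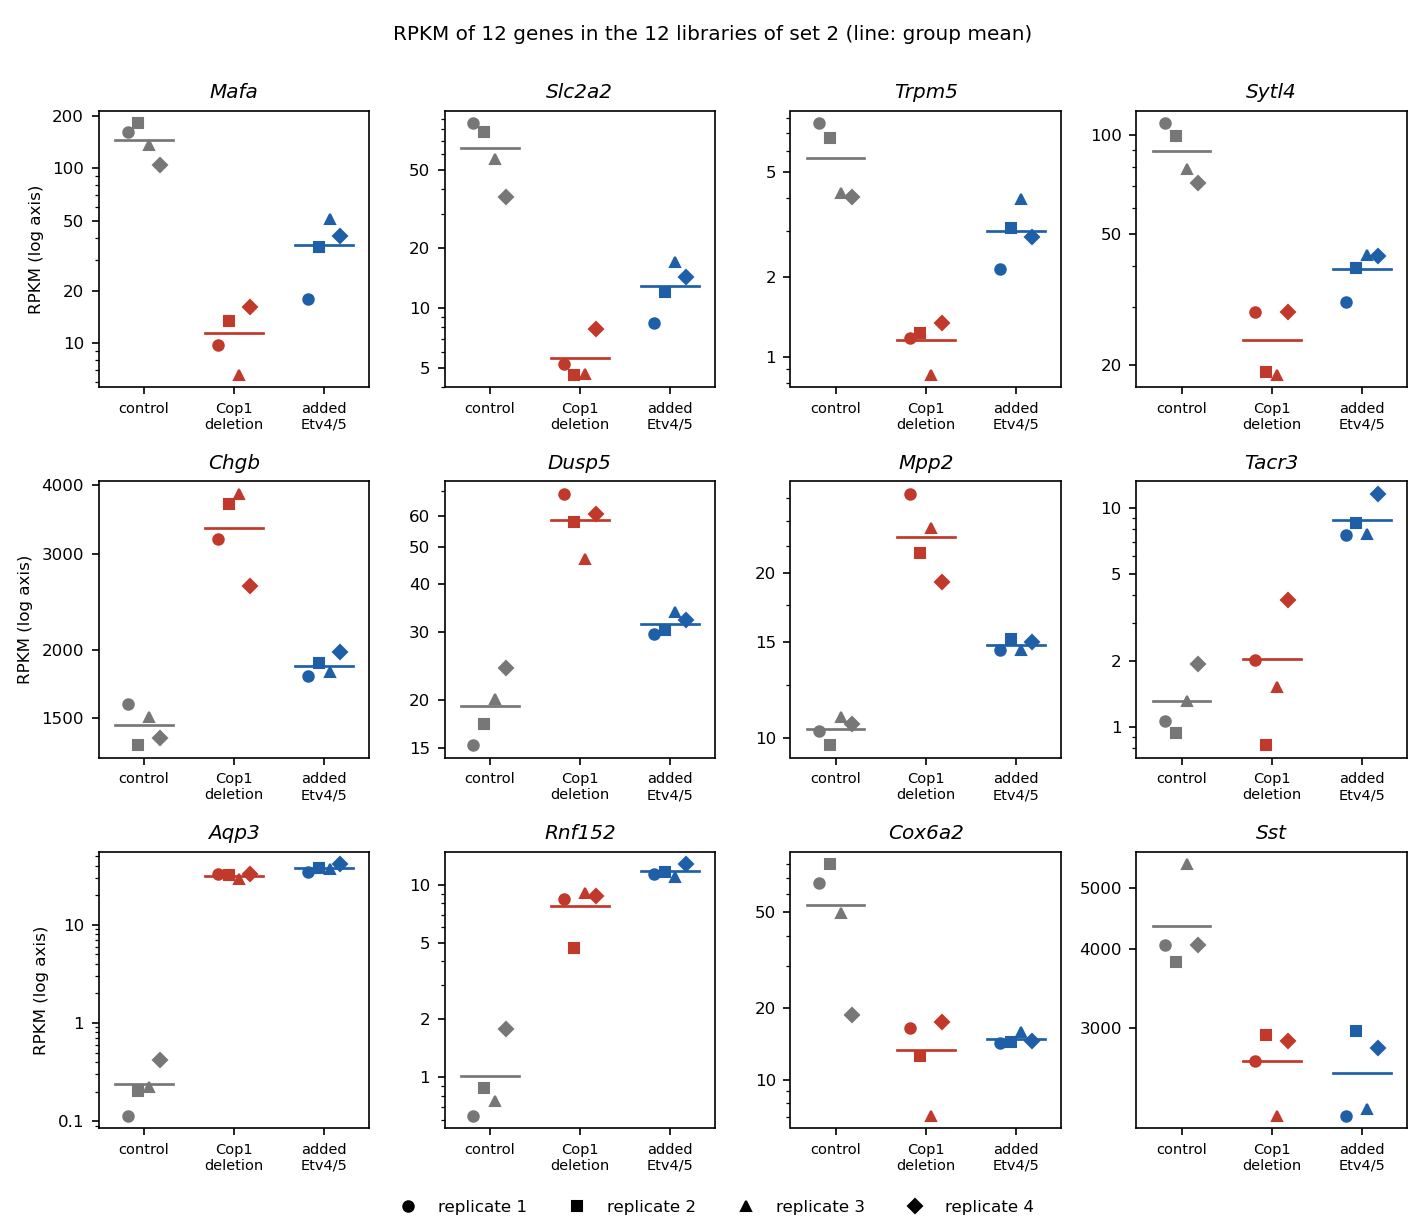
RPKM per library on log axes for 12 genes in the 3 groups of set 2, with the replicate number as marker shape and the group mean as a line. Mafa, Slc2a2, Trpm5 and Sytl4 lie between Cop1 deletion and control, Chgb, Dusp5 and Mpp2 lie below Cop1 deletion and near or above control, Tacr3 lies above both groups, and Aqp3, Rnf152, Cox6a2 and Sst lie on the Cop1 deletion side of control.

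Ion channels that couple glucose to secretion showed the same leaning. Trpm5 is in both lists, and the channel list too was drawn up with earlier results of these data known. Of 31 tested, 11 were higher without overlap (35.5%, against 7.49% of all genes) and 1, Trpm4, was lower (3.23%, against 6.63%), with a median of 0.26. On the scale that leaves out acinar markers 7 were higher (22.6%, against 3.11% of all genes). Kcnk16, the TALK-1 potassium channel of β cells, was 56.6, 68.5, 69.1 and 66.4 RPKM against 36.8, 42.5, 44 and 54.5, with controls at 77.6 to 103 (0.56, SE 0.12, adjusted p = 0.2 and 0.02). Its groups were narrowly apart, and both were below control. Trpm5, a calcium-activated cation channel, was 2.15, 3.08, 3.94 and 2.84 RPKM against 1.18, 1.24, 0.861 and 1.35, with controls at 4.01 to 7.63. All 4 Etv4/5 values lay between the other groups (1.07, SE 0.17, adjusted p = 0.15 and 0.053). Abcc8, the sulfonylurea receptor subunit of the ATP-sensitive potassium channel, was 237 to 269 RPKM against 180 to 241 (0.26, adjusted p = 0.3).

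Genes of the granule and its release went both ways. Of 40 exocytosis genes tested, 7 were higher and 4 lower without overlap (17.5% and 10%, against 7.49% and 6.63% of all genes). On the non-acinar scale 2 were higher and 4 lower (5% and 10%, against 3.11% and 10.2% of all genes). Sytl4, the granule docking protein granuphilin, was 31, 39.4, 43.1 and 42.8 RPKM against 29, 19, 18.7 and 28.9, with controls at 71.4 to 109 (0.72, SE 0.18, adjusted p = 0.23 and 0.032). Etv4/5 replicate 1 was only just above Cop1 deletion replicates 1 and 4. Syt13, a granule synaptotagmin, was the called member in the other direction, at 309, 317, 326 and 321 RPKM against 442, 382, 364 and 426. Its Etv4/5 values lay inside the control range of 285 to 328 (-0.34, SE 0.08, adjusted p = 0.21 and 0.015). Without Cop1 deletion replicates 2 and 3 it passed over the remaining 6 libraries too (-0.45, adjusted p = 0.034), but not with the acinar covariate in the 22-library fit (adjusted p = 0.075). Chgb, chromogranin B of the granule core, was 1790, 1890, 1820 and 1980 RPKM against 3190, 3700, 3860 and 2620, with controls at 1340 to 1590. The gap was wide, and the Etv4/5 libraries remained above all 4 controls (-0.82, 95% interval -1.12 to -0.53, adjusted p = 0.15 and 0.0037). Scg2, the related secretogranin II, was 3010 to 3180 RPKM against 3280 to 3840 (-0.17, adjusted p = 0.37), and the sign turned under quantile normalization (0.21). Exoc6, a subunit of the exocyst that tethers vesicles and chosen after its values were seen, was 18.6 to 20.2 RPKM against 23 to 35.7, with controls at 11.4 to 12.7 (-0.51, adjusted p = 0.25 and 0.02).

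The ERK feedback list joins genes that dampen ERK with genes induced downstream of it, such as Egr1 and Ccnd1. Of 17 tested, 2 were higher without overlap (11.8%, against 7.49% of all genes) and 4 lower (23.5%, against 6.63%). The 4 lower genes were Dusp5, Dusp6, Egr1 and Sprr1a. On the non-acinar scale 0 were higher and 3 lower (17.6%, against 10.2% of all genes). Dusp5, a nuclear phosphatase of ERK, was 29.7, 30.5, 33.9 and 32.3 RPKM against 68.7, 58.1, 46.4 and 60.9, with controls at 15.3 to 24.3. The Etv4/5 libraries kept a narrow range between the other groups (-0.87, 95% interval -1.13 to -0.60, adjusted p = 0.13 and 0.0037). Without Cop1 deletion replicates 2 and 3 Dusp5 passed over 6 libraries (-1.02, adjusted p = 0.012). An annotated gene on the other strand overlaps Dusp5 and the counting is not stated to use strand, so reads of the pair cannot be told apart. Dusp6, the cytoplasmic ERK phosphatase, was 13.2 to 15.5 RPKM against 15.7 to 26.1 (-0.35, adjusted p = 0.36 and 0.23), and Dusp4 was 18.9 to 21.9 against 7.53 to 18.5 (0.55, adjusted p = 0.36 and 0.15). Ccnd1, cyclin D1, was 48.4 to 56.8 RPKM against 27.8 to 49.7 (0.34, adjusted p = 0.38). Egr1, an immediate early factor, was 5.41 to 6.61 RPKM against 10.5 to 24.4, and controls spread from 7.35 to 50.9 (-1.26, adjusted p = 0.15 and 0.12). AP-1 and immediate early genes, some of them encoding COP1 substrates, had 5 of 16 lower without overlap (31.2%, against 6.63% of all genes). None was higher (against 7.49%). Egr1 is counted in this list and in the ERK feedback list. On the non-acinar scale 4 were lower (25%, against 10.2% of all genes). The median of the AP-1 list was -0.18, and it was -0.07 without Cop1 deletion replicates 2 and 3 and 0.02 with the acinar covariate. Of 20 ETS family genes tested, 1, Ehf, was lower without overlap (5%, against 6.63% of all genes) and none higher. Of 18 genes named as PEA3 targets in other tissues 1, Ret, was higher (5.56%, against 7.49%).

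Only 5 genes were called in the 22-library fit, again without Cop1 deletion replicates 2 and 3, and again with the acinar covariate: Chgb, Dusp5, Mpp2, Srsf5 and Tacr3. The last 3 were chosen after their values were seen. Mpp2, a scaffold protein of the membrane-associated guanylate kinase family, was 14.5, 15.2, 14.5 and 15 RPKM against 28, 21.8, 24.2 and 19.3, with controls at 9.7 to 10.9. Its Etv4/5 libraries agreed closely and lay between the other groups (-0.63, 95% interval -0.87 to -0.38, adjusted p = 0.15 and 0.0037). Mpp2 lies on chromosome 11 (GRCm38.p6), where 23 of 1020 genes tested (2.25%) passed in the 22-library fit, against 1.82% of all placed genes. Its distance from the targeted Etv4 gene was not examined. An effect linked to the Etv4 allele therefore cannot be told apart from loss of the Etv factors. Srsf5, a splicing factor, was 20, 15.6, 15.9 and 16.7 RPKM against 28.7, 26.3, 23.1 and 26.7, with controls from 16.9 to 28 (-0.61, adjusted p = 0.15 and 0.019). Tacr3, the receptor of the tachykinin neurokinin B, was 7.5, 8.52, 7.61 and 11.6 RPKM against 2.02, 0.83, 1.53 and 3.81. Here the Etv4/5 libraries stood above the controls as well, which held 0.943 to 1.95 RPKM (1.98, 95% interval 1.23 to 2.74, adjusted p = 0.15 and 0.0044, a ratio of means of 4.31).

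The 250 bases before the RefSeq start site are shown for Tacr3 and Mpp2, whose calls held in these settings, and for Slc2a2, which has fewer GGAA cores, in the direction of the gene, from the RefSeq table on GRCm38.p6 (the reads were placed on mm9). Capitals mark each GGAA, the core letters bound by ETS factors, or TTCC, the same letters on the other strand. The windows are chr3:134828757-134829006 (+ strand), chr11:102088516-102088765 (- strand) and chr3:28697653-28697902 (+ strand).
Tacr3: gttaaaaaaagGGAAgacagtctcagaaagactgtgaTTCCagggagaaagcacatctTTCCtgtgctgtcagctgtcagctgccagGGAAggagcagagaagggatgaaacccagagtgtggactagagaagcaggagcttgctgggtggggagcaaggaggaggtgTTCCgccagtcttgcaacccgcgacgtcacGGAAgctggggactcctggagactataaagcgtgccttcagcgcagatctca
Mpp2: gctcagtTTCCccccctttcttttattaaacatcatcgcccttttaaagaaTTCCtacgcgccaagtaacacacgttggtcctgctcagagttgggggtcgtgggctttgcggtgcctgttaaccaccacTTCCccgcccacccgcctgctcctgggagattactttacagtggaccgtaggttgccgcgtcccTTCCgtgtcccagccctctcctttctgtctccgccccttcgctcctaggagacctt
Slc2a2: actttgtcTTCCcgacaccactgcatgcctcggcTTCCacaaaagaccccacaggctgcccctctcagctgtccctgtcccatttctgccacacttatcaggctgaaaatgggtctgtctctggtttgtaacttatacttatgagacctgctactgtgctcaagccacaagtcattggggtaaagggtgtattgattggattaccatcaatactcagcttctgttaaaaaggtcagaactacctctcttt

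The core occurs 6 times in the Tacr3 window, 4 times in that of Mpp2 and 2 times in that of Slc2a2, and 92.9% of the 12549 windows of tested genes hold it at least once on either strand. The longer CGGAAG, which contains the core, occurs 1 time in Tacr3, 1 time in Mpp2 and not in Slc2a2. It was found in 24.3% of the windows of tested genes, in 10 of 89 windows of genes called higher (11.2%) and in 29 of 126 windows of genes called lower (23%). CCGGAAGT, longer still, was in 5.75%, 2.25% and 6.35% of these windows, and in none of the 3 shown. Genes with several start sites enter more than once, and a match of letters is not a bound site.

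**Figure D3:**
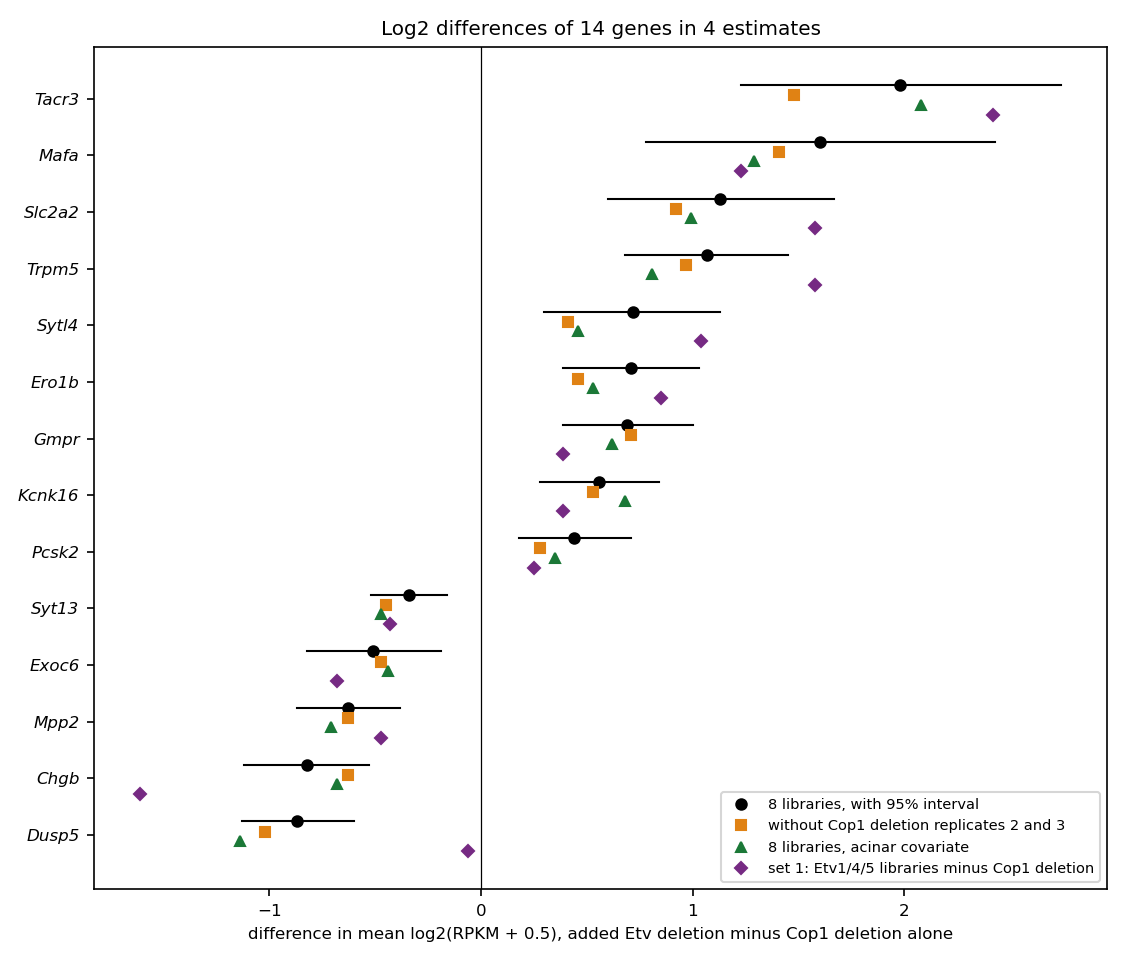
Differences in mean log2(RPKM + 0.5) of 14 genes, chosen after their values were seen, added Etv deletion minus Cop1 deletion alone: set 2 with its 95% interval, set 2 without Cop1 deletion replicates 2 and 3, set 2 with an acinar covariate, and set 1. Srsf5, called in set 2 at -0.61 and higher in set 1 at 0.25, is not among the genes drawn, and for Dusp5 the set 1 value is -0.06.

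Several genes that Cop1 deletion moves far from control lay near the Cop1 deletion level in the Etv4/5 libraries. Of 28 genes listed as changed after Cop1 deletion in an earlier analysis of these data, 9 were higher and 3 lower without overlap (32.1% and 10.7%, against 7.49% and 6.63% of all genes). The list was chosen on libraries that include these, so its direction is no independent evidence. Aqp3, a water and glycerol channel, was 34.9 to 41.5 RPKM in the Etv4/5 libraries and 29.1 to 32.7 after Cop1 deletion, and at most 0.423 in control (0.25, adjusted p = 0.25). Rnf152, a lysosomal ubiquitin ligase, was 11 to 12.8 RPKM against 4.68 to 9.02, with at most 1.78 in control (0.61, adjusted p = 0.25), so both genes lay farther from control, not nearer. Tm4sf20, a tetraspan membrane protein gene, was 8.21 to 11.4 RPKM against 4.12 to 15 and at most 0.52 in control. C1qa, a complement chain, was 67.6 to 103 RPKM against 72.7 to 116, with 13.1 to 21.1 in control. Among genes lower than control after Cop1 deletion, Cox6a2, a cytochrome oxidase subunit, was 14.2 to 15.8 RPKM against 7.08 to 17.5 (control 18.7 to 79.6), and Sst, somatostatin, 2180 to 2970 against 2180 to 2930 (control 3820 to 5460). For Cox6a2 the 95% interval of the difference was -0.36 to 0.78 and for Sst -0.39 to 0.26, so moderate differences in either direction are compatible with these values. Aldh1a3, a retinaldehyde dehydrogenase linked to dedifferentiated β cells, was 4.29 to 9.35 RPKM against 5.46 to 33.5, with 0.935 to 2.59 in control (-1.08, adjusted p = 0.37). Spp1, osteopontin, was 414 to 2010 RPKM against 1840 to 3490 (-1.75, adjusted p = 0.25), with Etv4/5 replicate 1 highest of its group in Spp1 and in summed ductal markers, a list that holds Spp1.

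Set 1 holds 4 libraries with Etv1, Etv4 and Etv5 deletion added to Cop1 deletion, 3 with Cop1 deletion and 3 controls, none of them among the 8. Of these controls, 1 carried Esr1 at the level of Cre libraries, against its label, so results that use the set 1 controls are given with and without it. Its own fit called 1451 genes higher with the added deletions (10.8% of 13458) and 1021 lower (7.59%). Of the 1388 of the higher genes that were tested in set 2, 155 (11.2%) were higher without overlap in the Etv4/5 libraries and 106 (7.64%) lower. Of the 995 lower genes tested, 52 (5.23%) were higher and 84 (8.44%) lower, beside 7.49% and 6.63% over all genes. On the non-acinar scale the higher list had 6.84% higher and 8.93% lower, and the lower list 2.41% and 11%, beside 3.11% and 10.2%. Cop1 deletion against control in set 1 called 543 genes higher (4.08%) and 521 lower (3.92%), and without the control that carried Esr1 it called 695 (5.28%) and 700 (5.32%). Of the genes lower there, 497 were tested in set 2, and 68 (13.7%) were higher without overlap in the Etv4/5 libraries against 23 (4.63%) lower. Of 529 genes higher there, 34 (6.43%) were higher and 50 (9.45%) lower. The medians of these 2 lists in set 2 were 0.05 for the lower and -0.01 for the higher genes, beside 0.01 over all genes. Without the control that carried Esr1, 12.5% of 666 lower genes were higher in the Etv4/5 libraries and 5.11% lower, against 5.01% and 8.85% of 678 higher genes, and the medians were 0.05 and 0.02.

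Single genes could be set beside each other in the same way. In set 1 the added Etv1/4/5 deletion gave a difference of 1.23 for Mafa (adjusted p = 0.0013), 1.58 for Slc2a2 (adjusted p = 0.0012), 1.04 for Sytl4 (adjusted p = 0.00061) and 0.85 for Ero1b (adjusted p = 0.00092). Mafa levels there were higher than in set 2, at 113 to 132 RPKM against 41.3 to 61.3 after Cop1 deletion and 145 to 318 in control (191 to 318 without the control that carried Esr1). Chgb differed by -1.61 (adjusted p = 9.6e-05), from 2060 to 2140 RPKM after Cop1 deletion to 610 to 811, which overlapped its controls at 704 to 799 (704 to 731 without that control). Tacr3 differed by 2.42 (adjusted p = 0.0018), with 7.09 to 12.7 RPKM against 0.912 to 2.36, again above controls at 0.131 to 0.207, a range that does not change without it. Mpp2 (-0.47, adjusted p = 0.0026), Syt13 (-0.43, adjusted p = 0.00053) and Exoc6 (-0.68, adjusted p = 0.00017) were also lower there. Dusp5 was not (-0.06, adjusted p = 0.49), at 126 to 141 RPKM against 135 to 147, and Srsf5 was higher (0.25, adjusted p = 0.0043). Cox6a2 (1.95, adjusted p = 5.1e-05), Sst (1.07, adjusted p = 0.0056) and Nnat (1.09, adjusted p = 0.018) were higher in set 1, where in set 2 they lay near the Cop1 deletion level, and C1qa (-1.38, adjusted p = 9.6e-05) and Aldh1a3 (-3.02, adjusted p = 0.00071) were lower. Whether the effect differed between the sets was not tested, and the sets differ in sequencing and in the Etv alleles removed. Y transcripts were above Xist in every set 1 Cop1 deletion library but only in Etv1/4/5 replicates 1 and 2.

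The remaining lists held few genes each. Of 14 cell cycle genes tested, 3 were lower without overlap (21.4%, against 6.63% of all genes) and 1 higher (7.14%, against 7.49%). Mcm2, a subunit of the replicative helicase, was 3.02 to 6.28 RPKM against 6.85 to 7.43 (-0.77, adjusted p = 0.22 and 0.02). Of 21 genes of fatty acid and cholesterol synthesis, 3 were higher (14.3%, against 7.49% of all genes) and none lower (against 6.63%). Among the higher was Sqle, squalene epoxidase, at 95.2 to 108 RPKM against 68.9 to 92.3 (0.32, adjusted p = 0.25 and 0.043). Of 19 COP1 ligase partners 3 were lower (15.8%, against 6.63% of all genes) and 1 higher (5.26%, against 7.49%). On the non-acinar scale 3 were lower (15.8%, against 10.2% of all genes) and 0 higher. Trib1, a pseudokinase that brings substrates to COP1, was 41.3 to 50.7 RPKM against 54.3 to 78.4, with controls at 24.6 to 31.6 (-0.47, adjusted p = 0.25 and 0.049). Of 18 imprinted genes 5 were higher without overlap (27.8%, against 7.49% of all genes) and none lower. On the non-acinar scale 1, Ndn, was higher (5.56%, against 3.11%). Ndn, necdin, was 59.1 to 62.7 RPKM against 45.1 to 55 (0.33, adjusted p = 0.19 and 0.023). Interferon genes had a median of -0.84 over 20 tested, which was 0.09 without Cop1 deletion replicates 2 and 3, and none was free of overlap. The 26 genes of ER folding (1 higher, 1 lower), 28 of mitochondrial oxidation (3 and 0), 24 of glycolysis (2 and 2), 17 p53 targets (1 and 1), 20 of the amino acid response (0 and 1), 14 heat shock genes (0 and 1) and 13 progenitor genes (1 and 1) had counts of separated genes of 3 or fewer in either direction. Their shares reached at most 10.7% higher and 8.33% lower, against 7.49% and 6.63% of all genes.

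**Figure D4:**
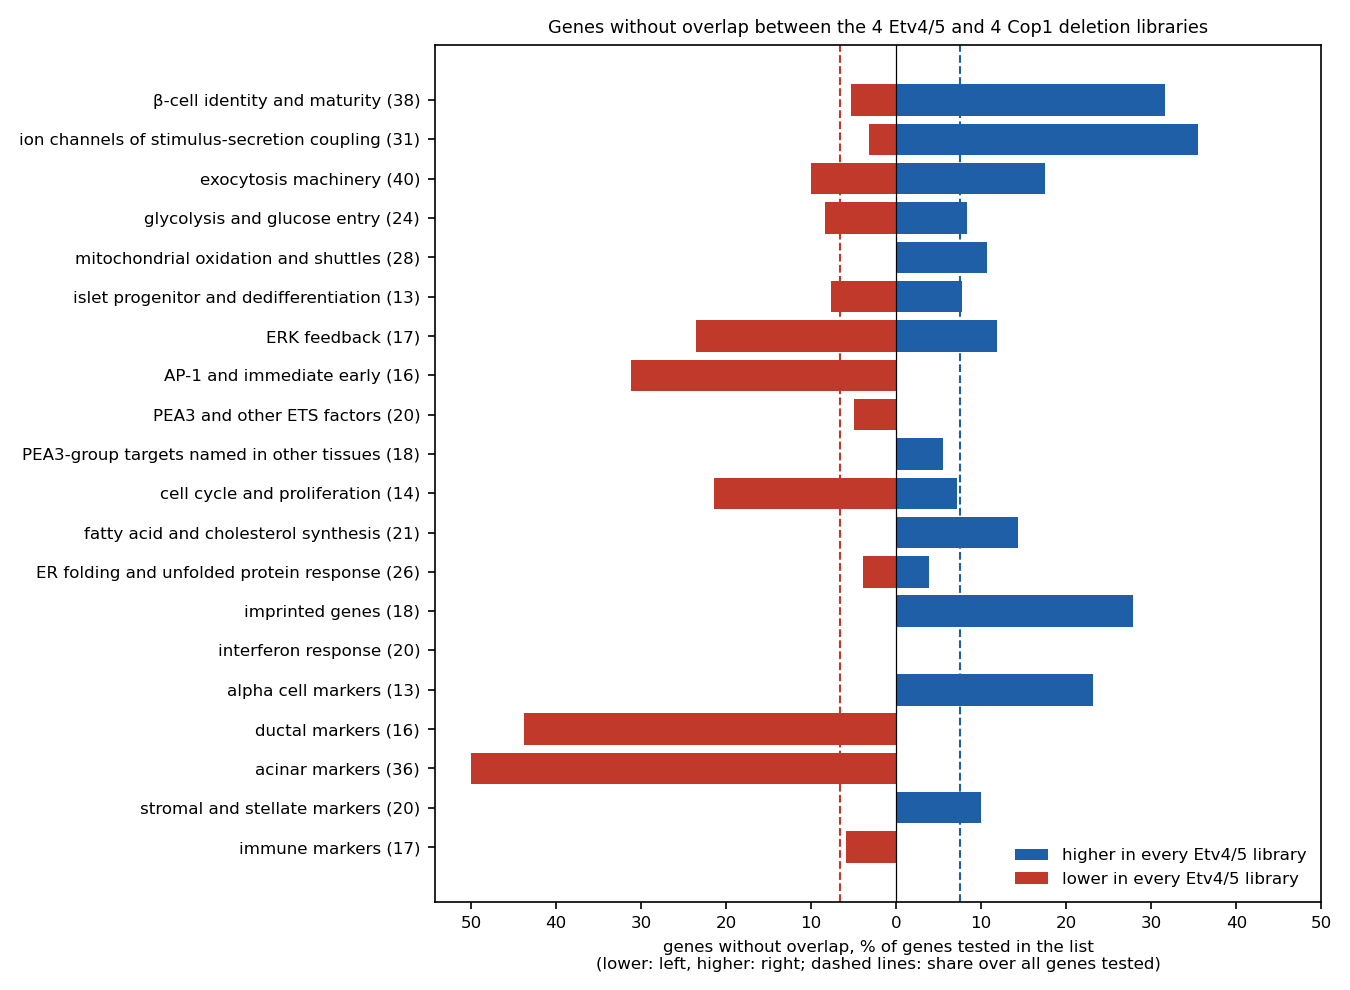
Share of each list's tested genes (number in brackets) that were higher (right) or lower (left) in every Etv4/5 library than in every Cop1 deletion library, in percent, with dashed lines at 7.49% and 6.63% for all genes. β-cell and ion channel genes reach 31.6% and 35.5% on the higher side, while acinar and ductal markers reach 50% and 43.8% on the lower side.

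Markers of other islet cells were read in the same libraries. None of 5 delta cell, 16 endothelial or 6 neural markers was free of overlap. Of 8 PP cell markers 1, Aqp3, was higher (12.5%, against 7.49% of all genes). Aqp3, Spp1 and Ppy, the PP hormone gene, all in the PP list, are also listed as changed after Cop1 deletion. The PP list therefore does not measure PP cells alone. Summed PP cell markers were 7980 to 9600 RPKM in the Etv4/5 libraries against 9210 to 21400 after Cop1 deletion (exact permutation test, 2-sided, p = 0.0571). Alpha cell markers summed to 24900 to 35000 RPKM in the Etv4/5 libraries and 17500 to 29100 after Cop1 deletion, and 3 of 13 were higher without overlap (23.1%, against 7.49% of all genes). Ttr, transthyretin, which is abundant in alpha cells, was 634, 952, 604 and 885 RPKM against 268, 422, 270 and 559 (1.06, SE 0.27, adjusted p = 0.23 and 0.023). Gcg, glucagon, was 24000 to 33700 RPKM against 16900 to 28200 (0.57, adjusted p = 0.28). The ductal keratin Krt18 was 194 to 221 RPKM against 266 to 465 (-0.70, adjusted p = 0.21 and 0.025), and Cldn7, a tight junction claudin, 62.6 to 65.1 against 74.5 to 92.5 (-0.36, adjusted p = 0.17 and 0.033). Krt7, a keratin of ducts and of these islets after Cop1 deletion, was 508 to 532 RPKM against 459 to 779, with 229 to 276 in control. The part of these cell types in the β-cell genes above was not tested beyond the acinar covariate, with which the median of the β-cell list was 0.2 in place of 0.29.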

How the data were processed

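The table holds RPKM per NCBI Gene number, a unit named by the authors, and the reads were placed on mm9 per the submitters' processing notes. The sources used here do not give the aligner, the counter or the annotation. Per the labels' protocols, RNA came from column purification and libraries from routine Illumina chemistry. Of 24 library columns 22 were placed by the sample number in the title, and 2 were not and enter no step. The number of reads is unknown, and precision rests on the spread between libraries. The series' design text speaks of 5 biological replicates but does not name the Etv4/5 genotype, and how libraries relate to mice is not given, so p-values measure only the spread between these libraries. Symbols came from GRCm38.p6 for 24998 of 28059 genes.

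limma 3.58.1 in R 4.3.3 was run on log2(RPKM + 0.5) with trended, robust variance estimates, 2-sided, Benjamini-Hochberg threshold 0.05; this understates changes of low genes. The test was tried on simulated libraries. Set 1 was fitted apart, and marker sums were compared by exact permutation (70 assignments). Members and lists were chosen with earlier results of these data known. Genes named by rule were the targeted genes, up to 4 called members of each list or else its 2 most abundant, the largest called genes, and the list of genes changed after Cop1 deletion; as 1 gene passed over the 8 libraries, list members called or separated in other settings, and Mpp2, Tacr3, Srsf5, Exoc6 and those of the closing part, were chosen after their values were seen. Alternatives covered pseudocount, filter, scaling, weights, libraries in the fit, covariates, a 2-fold minimum and left-out libraries. Those without Cop1 deletion replicates 2 and 3, and those that alter the 22-library fit, were chosen after seeing the data.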

Additional observations from a re-analysis of the deposited data

Results flagged for a closer look

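A library far from the other 3 of its group was found in 15 of 126 groups of 4 examined (11.9%), where chance gives about 1 in 20. In the Cop1 deletion group, replicate 3 stood apart in Dusp6 (26.1 RPKM, others 15.7 to 16.8) and Aqp3 (29.1, others 32.2 to 32.7). Replicate 2 stood apart in Rnf152 (4.68 RPKM, others 8.44 to 9.02) and Etv1 (1.81, others 4.56 to 5.12). Replicate 4 stood apart in Gcg (28200 RPKM, others 16900 to 17500) and in summed alpha cell markers (29100, others 17500 to 18100).

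Among the Etv4/5 libraries, replicate 1 was the outlying one in Ins1 (25000 RPKM, others 28300 to 28500), Esr1 (71.9, others 93.9 to 98.3), Spp1 (2010, others 414 to 671) and summed ductal markers (3200, others 1620 to 1860). Replicate 3 was outlying in Ins2 (153000 RPKM, others 133000 to 136000), Ccnd1 (56.8, others 48.4 to 49.7), Krt18 (194, others 218 to 221), summed endothelial markers (333, others 284 to 287) and the insulin share of RPKM (28.9%, others 25.8% to 26%).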

How the results depend on the processing

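The count of called genes was 1 in the reported fit and depended on the spread estimate and on the libraries. It was 2 with no filter, 2 at equal total RPKM without acinar markers, and 0 with a filter of 5 RPKM, quantile normalization, the 12 set 2 libraries, the acinar covariate, a 2-fold minimum, or without the library richest in acinar RNA in each group. Library weights, which were 0.064 and 0.238 for Cop1 deletion replicates 2 and 3, gave 1803, and 22 libraries gave 242. Leaving out Cop1 deletion replicates 2 and 3 gave 20, or 44 with 22 libraries. With 22 libraries the acinar covariate gave 8, the non-acinar total 209 and leaving out a set 1 control with Esr1 at the level of Cre libraries 236. Leaving out 1 library gave 0 to 8, and 15 to 769 with 22 libraries: 15, 21 and 22 without Etv4/5 replicates 2, 3 and 4, 88, 527 and 769 without Cop1 deletion replicates 2, 1 and 4. The smallest adjusted p was 0.41 with the acinar covariate and 0.067 with 12 libraries, and 875 and 1943 genes had an unadjusted p under 0.05. The cause was not tested.

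Genes without overlap numbered 1033 higher and 883 lower with median ratio scaling, 578 higher and 964 lower at equal total RPKM, and 415 higher and 1356 lower at equal totals without acinar markers. Fewer libraries leave less chance of overlap: 2143 and 2166 without Cop1 deletion replicates 2 and 3, and 1085 to 1663 higher and 1004 to 1446 lower with 1 library left out. Of 1846 values of 50 named genes over the alternatives, 4 turned sign, all under quantile normalization: Ins1 (-0.11), Ins2 (0), Scg2 (0.21) and Krt7 (0.03). Of 120 list medians, 29 moved by more than the spread between libraries. No paired analysis was possible because replicate numbers follow accession order only. Genes near 1 RPKM, such as Cop1 and Etv4, are limited by depth.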

Other observations

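A few further genes were chosen after their values were seen. Muc4, a membrane mucin, was 13.5 to 22.2 RPKM in the Etv4/5 libraries, 3.07 to 7.26 after Cop1 deletion and 1.12 to 5.14 in control (1.57, SE 0.25, limma adjusted p = 0.15 over 8 and 0.02 over 22 libraries). Gmpr, guanosine monophosphate reductase, was 54.7 to 63.9 RPKM against 28.7 to 46.6 and 23.6 to 26.5 in control (0.69, adjusted p = 0.16 and 0.015), and was also higher in set 1 (0.39, adjusted p = 0.0078). Mapk11, the p38β kinase gene, was 2.02 to 2.52 RPKM against 3.08 to 4.89 (-0.72, adjusted p = 0.16 and 0.02). Cyb561, a cytochrome of secretory granules, was 43.4 to 44.8 RPKM against 51.6 to 55.5 after Cop1 deletion and 62.7 to 66.3 in control (-0.28, adjusted p = 0.15 and 0.016). Muc4, Gmpr and Cyb561 therefore lay farther from control than Cop1 deletion alone did, each without overlap among the 8 libraries. Prlr, the prolactin receptor and a member of the β-cell list, was not called, and its Etv4/5 values of 24.6 to 32.7 RPKM, against 5.01 to 19.3 after Cop1 deletion, lay inside the control range of 23.2 to 60.9 (1.11, adjusted p = 0.28 and 0.081).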
